A study of Equus caballus with 40 samples.

Results

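Equine cartilage cells held in inflammatory medium with a serum preparation labelled AES24h were set against the same cells held with autologous equine serum (AES), 48 h after the sera were added. The comparison was chosen by sample title and took 8 of the 40 arrays of the series, 4 with AES24h and 4 with AES. Both groups were 3D pellet cultures of chondrocytes, the cells of cartilage, which lay down matrix around themselves in this form. Interleukin-1β (IL-1β), the recombinant equine protein at 5 ng/ml, had been on all of them for 48 h beforehand, and the treatments that followed were IL-1β with AES24h and IL-1β with AES. Pellets with IL-1β alone appear below for context only. Unstimulated pellets without IL-1β entered the fit, and no difference from them is given. The labels do not say how AES24h was made or give the serum doses. Per the labels, 1 pellet of each group was homogenised, and whether the 4 replicates are different horses, different cultures or neither is not stated. The p-values therefore describe the spread among these samples, which may be technical. The values are deposited log2 expression values, where 1 unit is a 2-fold difference in signal, for 30559 probe sets, of which 16661 represent a named gene.

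IL-1β is a cytokine of joint inflammation that drives chondrocytes to release collagenases and aggrecanases, the enzymes that break down type II collagen and aggrecan, and to make less of the matrix itself. Serum preparations from the patient's own blood are injected into joints with the intention of countering this cytokine. Among the gene programmes that serum and nutrient supply are known to move in cultured cells are sterol synthesis, which is switched on by the SREBP factors when cell cholesterol runs low, amino acid synthesis and uptake, which the factor ATF4 switches on when amino acids run low, and the NRF2 programme, which protects cells against oxidants.

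No probe set passed the test between AES24h and AES at 48 h. Of 30559 probe sets 0 (0%) had an adjusted p below 0.05 by limma with Benjamini-Hochberg adjustment, and the lowest adjusted p was 0.192. At an unadjusted p below 0.05 there were 3583 probe sets (11.7%), 1626 higher with AES24h (5.32%) and 1957 lower (6.4%). With each array centred on its median, 2180 of 3298 such probe sets were higher. Among named genes the share at that level was 13.1%, with 7.52% higher and 5.56% lower. The count moved with single arrays: 134 probe sets were called without AES replicate 3, 10 without AES replicate 1, and 0 without any one of the other 6 arrays.

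AES replicates 2 and 4 stood apart from the other 6 arrays. Across probe sets, these AES arrays correlated at 0.962 to 0.968 with the other AES arrays and with each other, and at 0.945 to 0.969 with the AES24h arrays. AES replicates 1 and 3 correlated at 0.975 with each other and at 0.972 to 0.982 with the AES24h arrays. The median SD of a probe set was 0.237 among AES24h arrays and 0.284 among AES arrays, where it was the highest of the 10 groups. Without AES replicates 2 and 4, 962 probe sets (3.15%) had an unadjusted p below 0.05 and 0 were called, so the differences between the sera below are given with and without these arrays. The 2 arrays were picked for their values and are those least like the AES24h arrays, so leaving them out brings most differences closer to 0 by construction. A value without them shows how much rests on these arrays and is no independent test. The opposite choice, without AES replicates 1 and 3, gave 1688 called probe sets, 991 higher with AES24h and 697 lower, and 7335 with an unadjusted p below 0.05. It sets AES24h against the AES arrays least like it, which enlarges differences by construction, and it leaves AES with 2 arrays. The call count of this comparison therefore depends on which AES arrays enter it.

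The array medians were 4.38, 4.42, 4.49 and 4.44 with AES24h and 4.47, 4.59, 4.43 and 4.54 with AES. AES replicates 2 and 4 had the highest medians of the 8, and the groups overlapped. These arrays also had the narrowest range of values, with interquartile ranges of 3.14 and 3.17 against 3.27 to 3.45 on the others. The part of this narrower range in the differences was not tested. The means were 4.43 ± 0.05 with AES24h and 4.51 ± 0.07 with AES (SD, n = 4 each), a difference of -0.07 with p = 0.171 in a two-sided exact permutation test, in which the smallest possible p is 0.0286. Over the upper 60% of probe sets by level the difference in median was 0.01, with the opposite sign.

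The sign of the difference between sera followed the level of the probe set. Probe sets with a mean level below 5 had median differences of -0.10 in each of 3 level classes, and those between 7 and 8 and between 8 and 9 had medians of 0.15. Without AES replicates 2 and 4 the class medians lay between -0.04 and 0.03, and between the same sera at 2 h they lay between -0.04 and 0.04. The median difference was -0.04 over all probe sets and -0.01 over named genes. The share of probe sets higher at an unadjusted p below 0.05 followed the level too. It was 2.67% at levels of 4 to 5, 4.89% at 5 to 6, 10.4% at 6 to 7, 16.9% at 7 to 8 and 18% at 8 to 9 and 14% at 9 or above, and the shares lower were 7.73%, 6.45%, 4.92%, 2.46%, 2.52% and 2.91% in these classes. Counts at an unadjusted p below 0.05 in the lists below are read against the share of the class that holds the list's median level. That level is a median over the 8 arrays compared. The classes were cut on the mean over all 40 arrays and include unnamed probe sets, so the match is approximate.

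**Figure D1:**
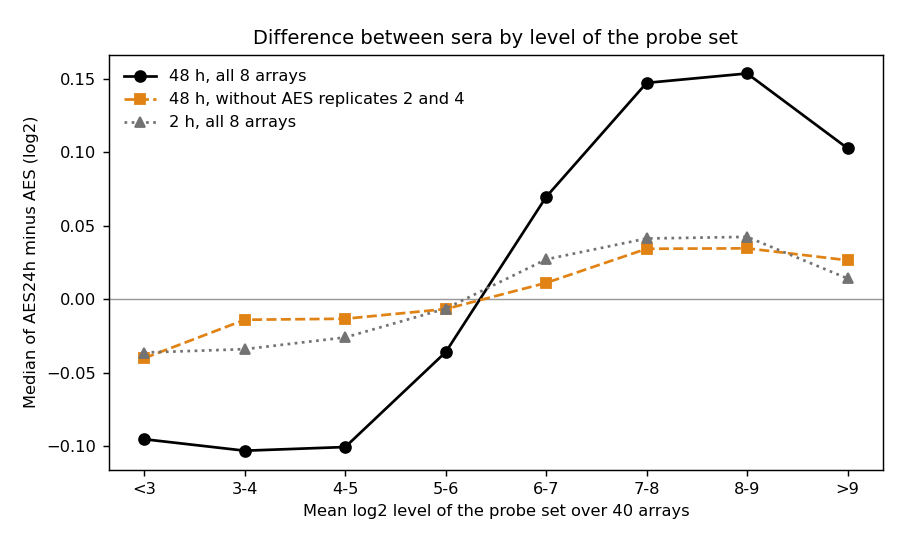
Median log2 difference (vertical axis, AES24h minus AES) of probe sets grouped by their mean log2 level over the 40 arrays (horizontal axis, 8 classes), for 48 h with all 8 arrays (circles), 48 h without AES replicates 2 and 4 (squares) and 2 h (triangles). With all arrays the 48 h medians run between -0.10 in the dim classes and 0.15 in bright ones, and both other lines stay within -0.04 to 0.04.

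Genes of amino acid synthesis and uptake held the 2 highest positive differences among the 16661 named genes, those of SLC7A11 and PSAT1. The list of ATF4 targets and amino acid genes had 28 measured members, of which 0 passed the adjusted test, 11 were higher with AES24h at an unadjusted p below 0.05 and 0 were lower. The median level of the list was 7.35, in the class where 16.9% of probe sets were higher and 2.46% lower. The median difference of the list was 0.33 with all 8 arrays and 0.27 without AES replicates 2 and 4, with 23 and 26 of the 28 members positive. In that level class 70.8% of probe sets were positive with all arrays, and the share without AES replicates 2 and 4 was not computed. Without those arrays 3 members were higher at an unadjusted p below 0.05, against 11 with all arrays. In 5 members the 4 AES24h arrays all lay above the 4 AES arrays, an ordering that 1.6% of named genes showed. The opposite ordering, shown by 2.3% of named genes, occurred in 0. Both shares are over named genes of all levels and were not computed by level class, so they are no matched background for this list.

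PSAT1, which makes phosphoserine on the way to serine, stood at 7.05, 7.41, 6.86 and 6.68 on the AES24h arrays and at 6.34, 5.24, 5.28 and 4.92 on the AES arrays. The groups did not overlap, and AES replicate 1 came closest to the AES24h arrays. The log2 difference was 1.56 (95% interval 0.66 to 2.45), a 2.94-fold ratio, with an adjusted p of 0.249, and 1.19 without AES replicates 2 and 4.

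ASNS, asparagine synthetase and a standard ATF4 target, stood at 6.49, 7.23, 6.71 and 6.88 with AES24h and at 5.98, 5.06, 5.77 and 5.27 with AES. Again every AES24h array lay above every AES array. Its difference was 1.30 (0.60 to 2.01) with an adjusted p of 0.235, and 0.95 without AES replicates 2 and 4.

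SLC7A5, the light chain of the main transporter for large neutral amino acids, read 8.33, 8.70, 8.63 and 8.76 with AES24h and 8.32, 7.67, 7.56 and 6.90 with AES. AES24h replicate 1 and AES replicate 1 were nearly equal, the groups did not overlap, and AES replicate 4 was the lowest array. Its difference was 0.99 (0.54 to 1.45) with an adjusted p of 0.228, and 0.67 without AES replicates 2 and 4. SLC7A11, the cystine importer, was picked after its values were seen: it had the highest difference among named genes, 1.58, with an adjusted p of 0.311, or 1.12 without AES replicates 2 and 4, and its groups overlapped. PSPH, the last enzyme of serine synthesis, differed by 0.79, or 0.44 without those arrays, while PHGDH, the first, differed by -0.20, or -0.21, so the 3 steps of that pathway did not show 1 sign.

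Set against IL-1β alone, the list had a median difference of -0.23 with AES24h and -0.67 with AES. Both serum groups share the IL-1β arrays, so each is given by itself. PSAT1 differed from IL-1β by -0.67 with AES24h (adjusted p = 0.886) and by -2.22 with AES (adjusted p = 0.0135). ASNS differed by -0.80 with AES24h (adjusted p = 0.628) and by -2.10 with AES (adjusted p = 0.00166), and SLC7A5 by -0.17 with AES24h (adjusted p = 0.967) and by -1.16 with AES (adjusted p = 0.0109). In the list 1 of 28 members was called lower with AES24h, the secreted hormone gene STC2, against 0.0622% of all probe sets (0.226% in either direction). With AES 6 were called lower, against 0.288% (0.442% in either direction), namely STC2, MARS1, MTHFD2, SLC7A5, ASNS and PSAT1. The direct difference between the sera is the one given above, which no member passed.

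**Figure D2:**
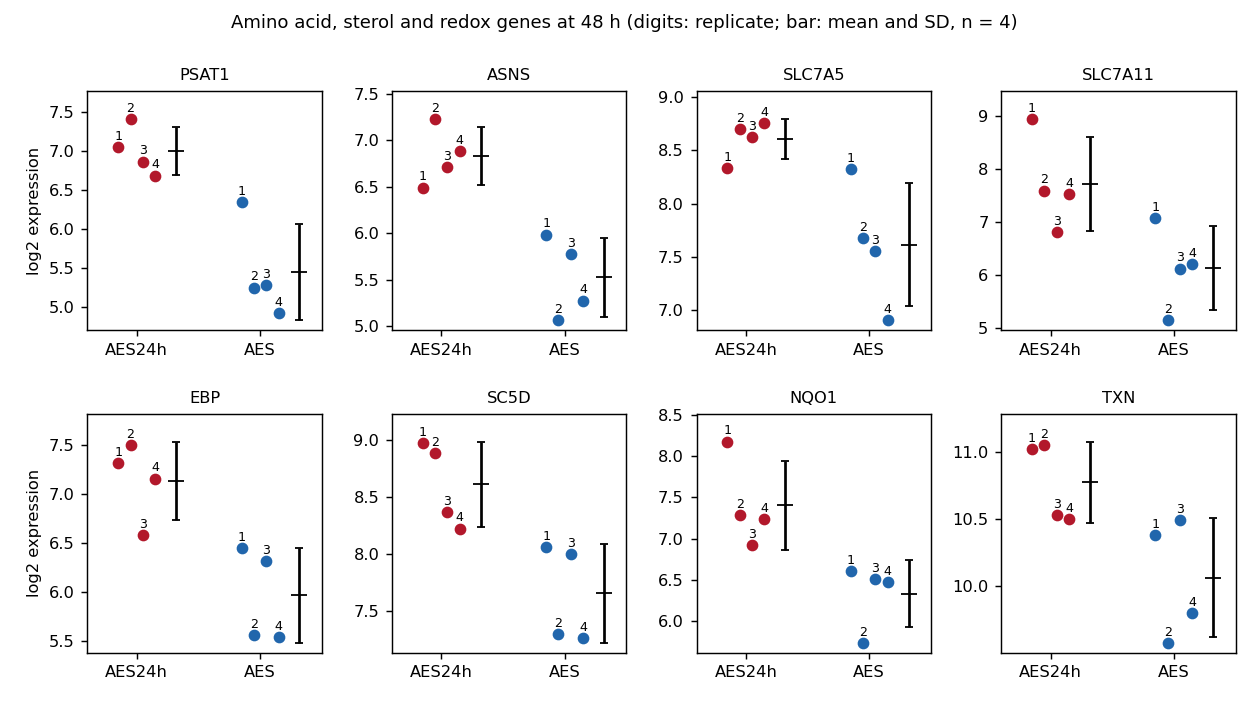
Log2 expression (vertical axis) of 8 genes on the 4 AES24h arrays (left) and 4 AES arrays (right) at 48 h, with digits for the replicate and a bar for mean and SD. Of the 8 genes only SLC7A11 overlaps between the groups. Apart from SLC7A11 and TXN, the genes were named by a rule that required no overlap. PSAT1 and ASNS have all AES24h arrays at 6.49 or above, and AES replicates 2 and 4 are the 2 lowest arrays for EBP, SC5D and TXN.

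Sterol synthesis genes also stood higher with AES24h than with AES in most members, without passing the adjusted test. The list of cholesterol and fatty acid synthesis had 25 measured members, 0 called, 10 higher at an unadjusted p below 0.05 and 0 lower. The median level was 6.94, in the class where 10.4% of probe sets were higher and just below the next, where 16.9% were. Of all probe sets, 59.9% in the class of the list and 70.8% in the next were positive with all arrays. The median difference of the list was 0.41 with all arrays and 0.22 without AES replicates 2 and 4, with 22 of 25 members positive in both cases. Without those arrays 6 members were higher at an unadjusted p below 0.05 and 0 lower, all 6 among the 10 above. Of all 30559 probe sets, 363 were higher at that level in this setting, and shares by level class were not computed for it. Both fits share arrays, so finding the same members again is no added support. In 5 members every AES24h array lay above every AES array. The share was 1.6% over named genes of all levels, which is not matched to the level of this list.

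EBP, the sterol isomerase of the late cholesterol pathway, read 7.31, 7.49, 6.57 and 7.15 with AES24h and 6.45, 5.55, 6.31 and 5.54 with AES. The groups did not overlap, although AES24h replicate 3 and AES replicate 1 lay close together. Its difference was 1.17 (0.70 to 1.64), with an adjusted p of 0.192, the lowest in the comparison, and 0.75 without AES replicates 2 and 4.

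SC5D, the desaturase of the same late steps, read 8.98, 8.89, 8.37 and 8.22 with AES24h and 8.06, 7.30, 8.0 and 7.26 with AES. It also kept its groups apart, with AES replicates 2 and 4 lowest. The difference was 0.96 (0.57 to 1.35) with an adjusted p of 0.192, and 0.58 without those 2 arrays.

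Picked after their values were seen, other enzymes of the pathway lay on the same side: MSMO1, which removes sterol methyl groups, differed by 1.27, the epoxidase SQLE by 0.83, the demethylase CYP51A1 by 0.79 and HMGCS1, which makes the mevalonate precursor, by 0.73. Without AES replicates 2 and 4 these were 0.58 for MSMO1, 0.39 for SQLE, 0.49 for CYP51A1 and 0.52 for HMGCS1. Genes of fatty acid synthesis in the list were mixed. FASN, fatty acid synthase, differed by -0.43, or -0.21 without those arrays, and FADS2, a fatty acid desaturase, by 0.70, or 0.12, neither with an unadjusted p below 0.05. ELOVL5, a fatty acid elongase outside the list, read 8.17, 8.07, 7.69 and 7.85 with AES24h and 7.64, 6.34, 7.37 and 6.75 with AES, a difference of 0.92 that was 0.44 without AES replicates 2 and 4.

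Oxidant defence genes had the highest median of the 36 lists with all 8 arrays, though the ATF4 list was higher without AES replicates 2 and 4 and the mitosis list without AES replicates 1 and 3. Of 18 measured members 0 were called, 8 were higher at an unadjusted p below 0.05 and 0 lower. The median level was 8.43, in the class where 18% of probe sets were higher, and the median difference was 0.45 with all arrays and 0.24 without AES replicates 2 and 4. Without those arrays 0 of the 18 had an unadjusted p below 0.05 in limma.

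NQO1, a quinone reductase and standard NRF2 target, read 8.17, 7.29, 6.92 and 7.24 with AES24h and 6.61, 5.74, 6.51 and 6.48 with AES. The groups did not overlap, AES24h replicate 1 being the highest and AES replicate 2 the lowest. Its difference was 1.07 (0.32 to 1.82) with an adjusted p of 0.298, and 0.84 without AES replicates 2 and 4.

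TXN, thioredoxin, read 11.02, 11.05, 10.53 and 10.50 with AES24h and 10.38, 9.58, 10.49 and 9.80 with AES. AES24h replicate 4 and AES replicate 3 nearly touched. Its difference was 0.71 with an adjusted p of 0.249, and less than that, 0.34, without AES replicates 2 and 4. HMOX1, which breaks down heme, differed by 0.83 with all arrays and by 0.77 without those arrays, but its groups overlapped.

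**Figure D3:**
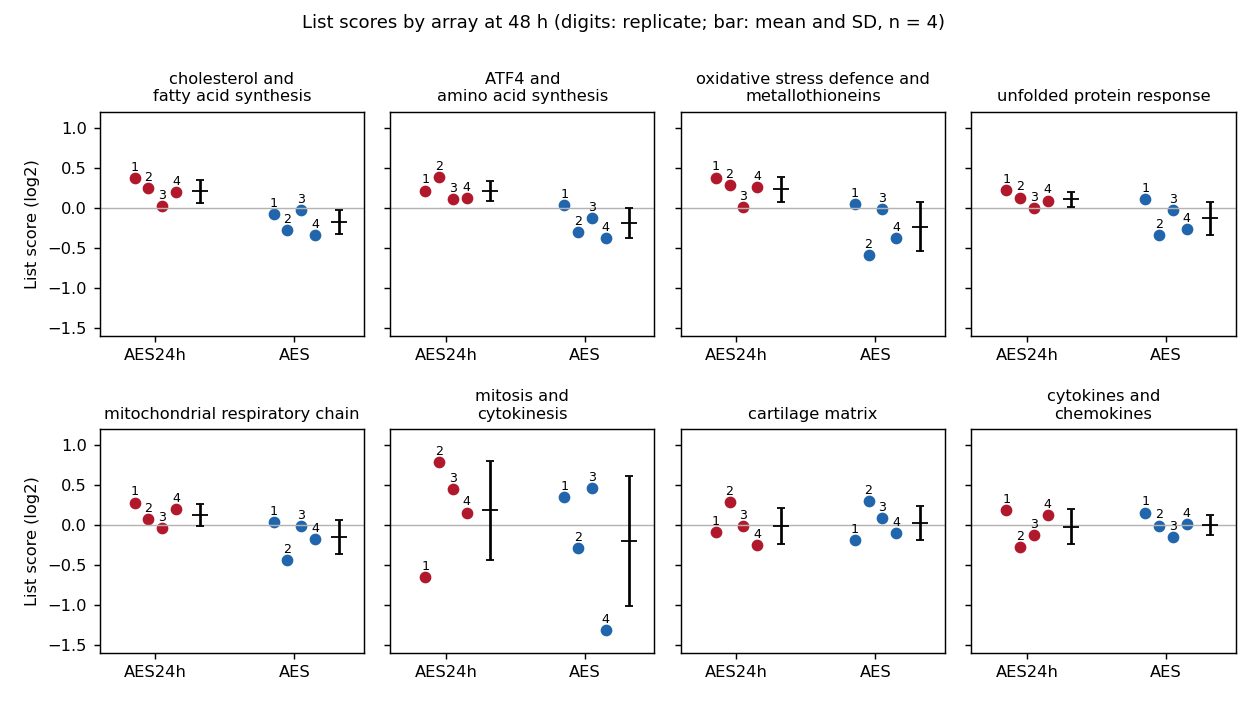
Score of 8 gene lists on each array (vertical axis, median over members of the log2 value minus the member's mean over the 8 arrays), AES24h left and AES right, with digits for the replicate and a bar for mean and SD. Of the 8 lists, sterol and ATF4 scores do not overlap between the groups (lowest AES24h arrays 0.03 and 0.11, highest AES arrays -0.03 and 0.04). Mitosis scores run between -1.31 and 0.79. Among lists not shown, integrins and adhesion (lowest AES24h array 0.05, highest AES array 0.02) and cytosolic tRNA synthetases (0.11 and 0.02) do not overlap either. The tRNA synthetase list was put together after its values were seen and shares 4 genes with the ATF4 list.

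Genes of the endoplasmic reticulum and of mitochondria had positive medians that were smaller without AES replicates 2 and 4. In the unfolded protein response list, 10 of 27 members were higher and 1 lower at an unadjusted p below 0.05, in a level class where 16.9% of probe sets were higher, and the median difference of 0.22 was 0.09 without AES replicates 2 and 4. HSPA5, the chaperone BiP, averaged 9.48 ± 0.33 with AES24h and 8.87 ± 0.27 with AES (SD, n = 4 each), a difference of 0.61 with an adjusted p of 0.285, or 0.38 without AES replicates 2 and 4. DERL1, which helps remove misfolded proteins, averaged 7.25 ± 0.29 with AES24h and 6.52 ± 0.51 with AES, a difference of 0.73 (adjusted p = 0.249), or 0.33 without those arrays. SEC61G, a subunit of the protein channel of the reticulum, read 7.56, 7.48, 7.53 and 7.62 with AES24h and 7.17, 6.14, 7.03 and 6.09 with AES, where replicates 2 and 4 were about 1 unit below the others. Its difference was 0.94 with all arrays and 0.45 without these. The respiratory chain list had 11 of 31 members higher and 0 lower at an unadjusted p below 0.05, in the same level class, with a median of 0.29, or 0.15 without those arrays. ATP5MC3, a subunit of the ATP synthase rotor, differed by 0.61, or 0.33 without those arrays, and NDUFV2, a subunit of complex I, by 0.36, or 0.20, both without overlap.

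Hypoxia and glycolysis genes had a median difference of 0.27 over 38 members, or 0.19 without AES replicates 2 and 4, with 4 members higher and 0 lower at an unadjusted p below 0.05, in a level class where 18% of probe sets were higher. BNIP3L, a mitophagy receptor, differed by 0.56, or 0.24 without those arrays, and P4HA2, a collagen prolyl hydroxylase, by 0.35, or 0.30, with overlapping groups. The 14 reference genes commonly used for normalising had a median of 0.27 as well, which was 0.05 without the same arrays. Ribosomal protein genes had a median of -0.03 over 39 members, or -0.01 without those arrays, with 0 at an unadjusted p below 0.05, in a level class where 14% of probe sets were higher and 2.91% lower.

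Growth factor lists stayed at or below the share of their level class among genes higher with AES24h. The list of growth factors and the IGF axis had 1 of 32 members higher and 1 lower at an unadjusted p below 0.05, in a level class where 10.4% of probe sets were higher, with a median difference of 0.02, or -0.015 without AES replicates 2 and 4. The TGF-beta and BMP list had 6 of 36 members higher and 2 lower, near the 16.9% higher and 2.46% lower of its level class, with a median difference of 0.12, or 0.00 without AES replicates 2 and 4. TGFB1, the ligand TGF-beta 1, read 7.05, 7.79, 7.48 and 7.56 with AES24h and 6.84, 6.55, 6.60 and 6.04 with AES. Its groups did not overlap. The difference was 0.96 (0.51 to 1.41), a 1.95-fold ratio, with an adjusted p of 0.228, and 0.75 without AES replicates 2 and 4. SMAD3, which carries the TGF-beta signal to the nucleus, differed by -0.50 (adjusted p = 0.293), or -0.31 without those arrays, also without overlap, so ligand and transducer had opposite signs.

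VEGFC, a growth factor of lymph vessels, read 6.76, 6.41, 6.89 and 6.83 with AES24h and 6.46, 5.20, 5.70 and 5.22 with AES. AES replicate 1 lay among the AES24h arrays. The difference was 1.08 with an adjusted p of 0.285, and 0.64 without AES replicates 2 and 4. Against IL-1β alone VEGFC differed by 2.05 with AES24h (adjusted p = 0.00183) and by 0.98 with AES (adjusted p = 0.212). PTHLH, the hormone-related peptide that holds back chondrocyte hypertrophy, read 5.33, 4.36, 4.87 and 4.78 with AES24h and 3.99, 3.79, 4.23 and 4.14 with AES. Its groups did not overlap, and the difference of 0.80 (adjusted p = 0.235) was 0.72 without AES replicates 2 and 4. The PTHLH mean with AES, 4.04, lay below every array median. ALCAM, a cell adhesion molecule, differed by 1.14 with an adjusted p of 0.235 and by 0.92 without those arrays, although its groups overlapped. ITGB3, the integrin beta 3 chain, differed by 0.57, or 0.35 without those arrays, and was called above IL-1β alone in both sera, by 1.74 with AES24h, where 0.164% of probe sets were called higher, and by 1.17 with AES, where 0.154% were.

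IL6, CXCL8, PTGS2 and NOS2, markers of the IL-1β response, varied more among the arrays of a group than between the sera. The cytokine and chemokine list had a median difference of -0.03 over 27 members, or -0.06 without AES replicates 2 and 4, with 1 higher and 2 lower at an unadjusted p below 0.05, in a level class where 2.67% of probe sets were higher and 7.73% lower, and the NF-kB list had a median of 0.04 over 32 members, or -0.05. IL6 read 9.92, 6.84, 7.29 and 9.78 with AES24h and 9.56, 6.64, 8.62 and 8.75 with AES. The highest and lowest arrays of each group were about 3 units apart. The difference was 0.06 (-1.27 to 1.40), and -0.63 without AES replicates 2 and 4.

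CXCL8, the neutrophil chemokine, read 9.68, 6.92, 7.26 and 8.69 with AES24h and 9.48, 6.95, 7.07 and 6.93 with AES. AES replicate 1 stood more than 2 units above the other AES arrays. The difference was 0.53 (-0.91 to 1.97), and -0.14 without AES replicates 2 and 4.

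PTGS2, the inducible cyclooxygenase, read 9.32, 6.48, 6.05 and 8.28 with AES24h and 7.98, 5.33, 6.11 and 6.08 with AES. Replicate 1 was the highest array in each group, and the groups overlapped. The difference was 1.16 (-0.30 to 2.62) with an adjusted p of 0.526, and 0.49 without AES replicates 2 and 4. NOS2, the inducible nitric oxide synthase, differed by 0.43 (-0.70 to 1.55), or 0.17 without those arrays. IL1RN, the natural IL-1 receptor antagonist, averaged 2.48 ± 0.19 with AES24h and 2.59 ± 0.10 with AES (SD, n = 4 each), below every array median in both groups, a difference of -0.11, or -0.04 without those arrays.

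The named collagenases and aggrecanases overlapped between the sera. Their list had 4 of 36 members higher and 0 lower at an unadjusted p below 0.05, in a level class where 4.89% of probe sets were higher and 6.45% lower, and a median difference of 0.09, or 0.08 without AES replicates 2 and 4. MMP1, a collagenase, read 12.18, 11.18, 12.27 and 12.50 with AES24h and 11.80, 10.04, 12.32 and 12.10 with AES. Replicate 2 was the lowest array in both groups. The difference was 0.47 (-0.48 to 1.42), and -0.03 without AES replicates 2 and 4. MMP13, the main collagenase for type II collagen, differed by 0.30 (-0.75 to 1.35), or -0.05 without those arrays, and MMP3, stromelysin, by 0.22 (-0.77 to 1.21), or 0.07.

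ADAMTS5, an aggrecanase, read 9.71, 10.41, 10.38 and 10.49 with AES24h and 10.13, 9.15, 9.95 and 9.76 with AES. AES24h replicate 1 lay among the AES arrays. The difference was 0.50 (-0.03 to 1.04) with an adjusted p of 0.457, and 0.21 without AES replicates 2 and 4. ADAMTS4, the other aggrecanase, differed by 0.23 (-0.60 to 1.06), or 0.32 without those arrays. TIMP1, an inhibitor of these metalloproteinases, read 11.72, 11.99, 11.43 and 11.86 with AES24h and 11.43, 10.71, 11.08 and 10.99 with AES. The lowest AES24h array and the highest AES array were nearly equal, and the groups did not overlap. The difference was 0.70 (0.12 to 1.28) with an adjusted p of 0.355, and 0.50 without AES replicates 2 and 4. CTSK, the collagen-cleaving cathepsin K, differed by 0.60 (adjusted p = 0.377), or 0.38 without those arrays.

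**Figure D4:**
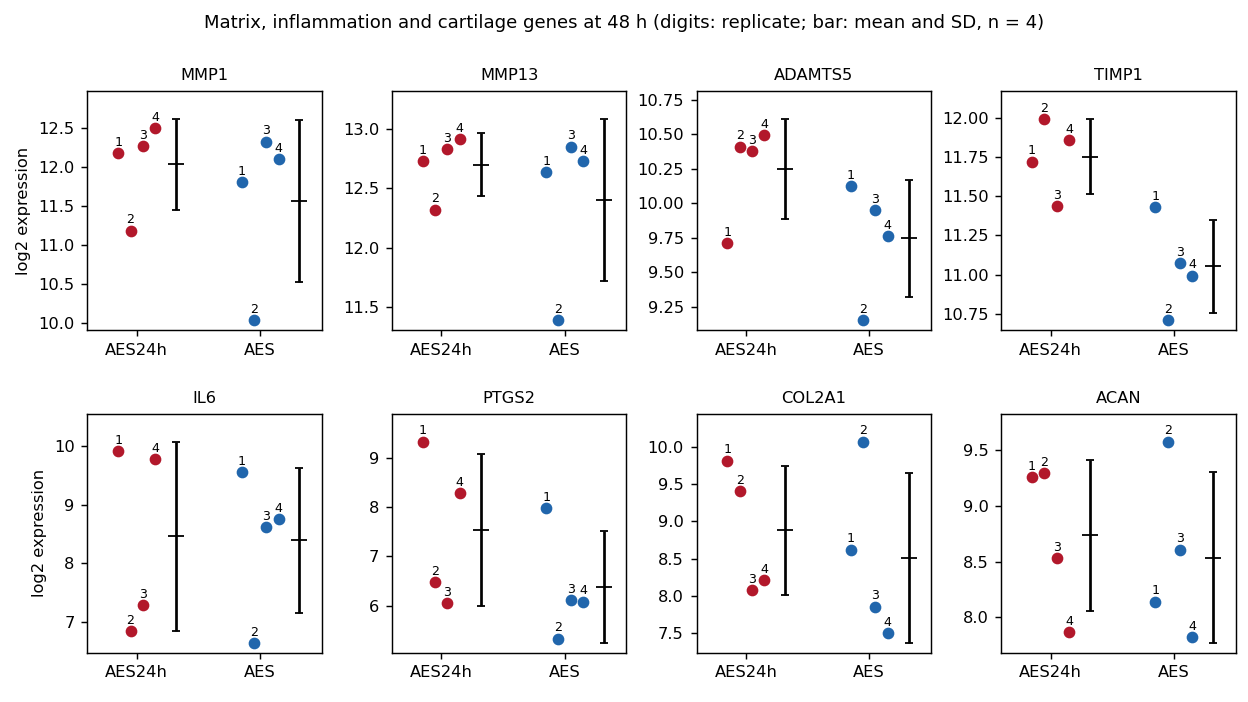
Log2 expression (vertical axis) of 8 genes of matrix breakdown, inflammation and cartilage matrix on the 4 AES24h arrays (left) and 4 AES arrays (right) at 48 h, with digits for the replicate and a bar for mean and SD. TIMP1 is the only 1 of the 8 whose groups do not overlap, and IL6 runs between 6.84 and 9.92 with AES24h and between 6.64 and 9.56 with AES.

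No cartilage matrix gene passed the adjusted test. Of 33 measured members 0 were higher and 1 lower at an unadjusted p below 0.05, in a level class where 16.9% of probe sets were higher and 2.46% lower, and the median difference was -0.03, or 0.09 without AES replicates 2 and 4. COL2A1, type II collagen, read 9.82, 9.41, 8.07 and 8.21 with AES24h and 8.62, 10.07, 7.85 and 7.49 with AES. The highest of the 8 arrays was AES replicate 2 and the lowest AES replicate 4, so the AES arrays spanned those of AES24h. The difference was 0.37 (-0.60 to 1.34), and 0.64 without AES replicates 2 and 4. ACAN, aggrecan, differed by 0.20 (-0.54 to 0.94), or 0.36 without those arrays. COL1A1, type I collagen of fibrous tissue, differed by -0.18 (-0.84 to 0.49) with and without them, and SOX9, the cartilage master regulator, by -0.14 (-0.49 to 0.21), or -0.04. MATN4, a matrilin, was the member below the unadjusted threshold, at -0.40, or -0.16 without those arrays.

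Cell division genes turned with the arrays used. In the mitosis list 43 of 44 members were positive with a median of 0.42. The median level was 4.73, in a class where 36% of probe sets were positive and 2.67% higher at an unadjusted p below 0.05. Only BIRC5, a survival and division factor, had an unadjusted p below 0.05 (1.12, or 0.82 without AES replicates 2 and 4). BIRC5 averaged below every array median in both groups. Without AES replicates 2 and 4 the list median was -0.19 with 4 of 44 positive. The list scores were -0.66, 0.79, 0.45 and 0.16 with AES24h and 0.36, -0.29, 0.46 and -1.31 with AES. AES replicate 4 and AES24h replicate 1 were the lowest arrays, and the groups overlapped. MKI67, the proliferation antigen, read 4.41, 6.85, 6.46 and 6.27 with AES24h and 6.29, 6.0, 6.35 and 4.18 with AES, a difference of 0.29 (-0.82 to 1.40) that was -0.32 without AES replicates 2 and 4. In pellets, fewer dividing cells and less RNA per cell cannot be told apart.

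**Figure D5:**
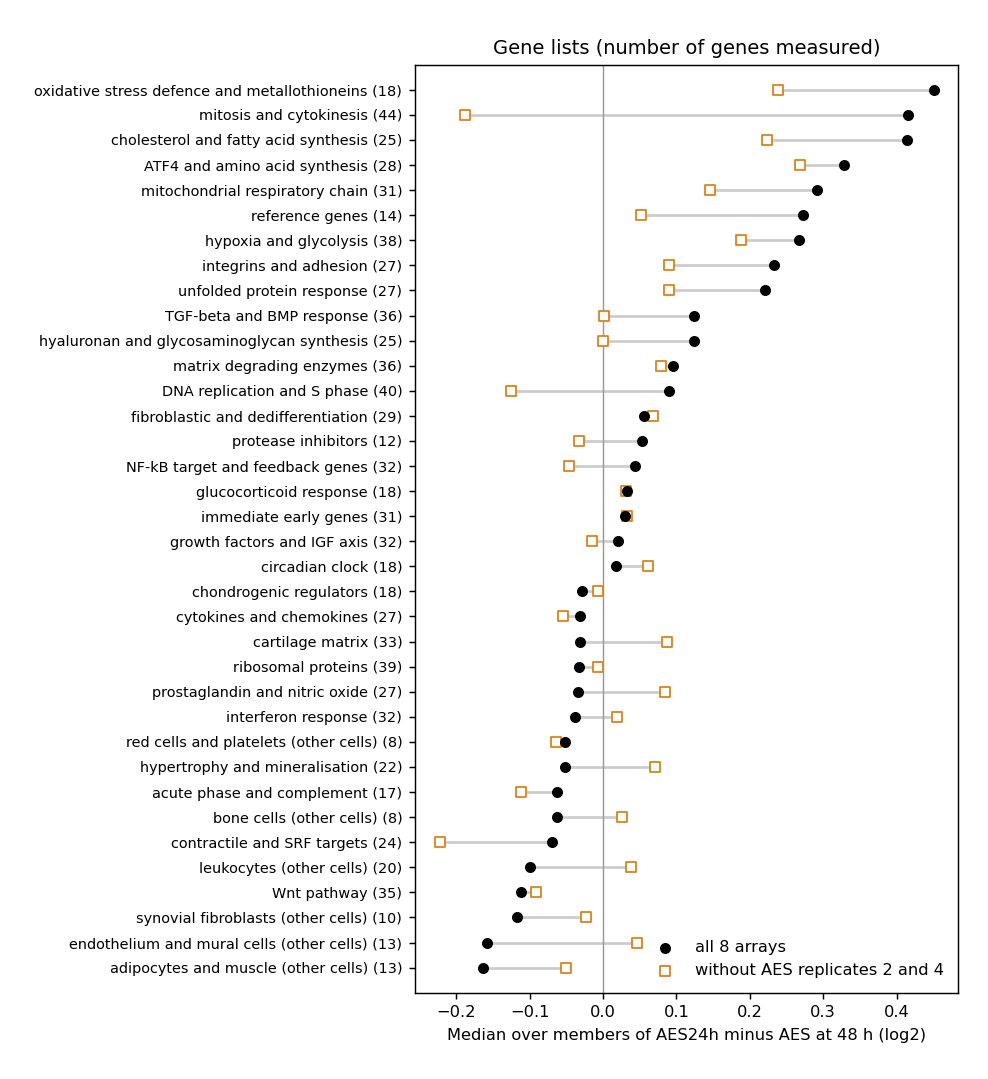
Median over members of the log2 difference AES24h minus AES at 48 h (horizontal axis) for 36 gene lists (rows, with the number of measured genes), for all 8 arrays (filled circles) and without AES replicates 2 and 4 (open squares). Oxidant defence, sterol and ATF4 lists stay at 0.22 or above in both, and the mitosis list is at 0.42 with all arrays and -0.19 without those 2.

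Genes lower with AES24h were mostly dim. Of the 10 lowest differences without overlap in the upper 60% of probe sets by mean level, 7 averaged below every array median with AES24h. CDKN2B, the cell cycle inhibitor p15, read 3.19, 3.80, 3.81 and 3.68 with AES24h and 4.61, 4.88, 3.95 and 4.98 with AES. AES replicate 3 came closest to the AES24h arrays. The difference was -0.99 (-1.49 to -0.48) with an adjusted p of 0.235, and -0.66 without AES replicates 2 and 4.

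OVOL1, a zinc finger factor of epithelia, differed by -0.90 with an adjusted p of 0.192, and by -0.74 without those arrays. NFATC1, a calcineurin-driven transcription factor, was brighter: it read 7.23, 7.19, 7.52 and 7.46 with AES24h and 7.80, 8.18, 7.75 and 8.24 with AES. Its groups did not overlap, and the difference was -0.64 (-1.06 to -0.23) with an adjusted p of 0.285, and -0.42 without those arrays. MYC, a growth-promoting transcription factor, differed by -0.55 (adjusted p = 0.301) and by -0.29 without AES replicates 2 and 4. The rest of the 10, OR8B1, RBBP8NL, RGR, OR5P1, GSX2, LOC100070707 and LYPD3, lay between -0.73 and -0.62, or between -0.68 and -0.33 without those arrays.

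Most chondrocyte markers lay above the array medians in both groups, at uneven levels. COMP averaged 12.15 with AES24h and 12.30 with AES. SOX9, COL9A1 and CNMD averaged 4.72 to 5.27 with AES24h and 4.91 to 5.45 with AES, and MATN3 averaged 3.20 and 3.09. Of 9 chondrocyte markers 8 lay above every array median with AES24h and with AES, and their mean level per array was 6.86 to 7.67 with AES24h and 6.84 to 7.79 with AES. Of the defining markers of other cells, 0 of 4 for endothelium and 0 of 3 for synovial fibroblasts lay above every array median in either group. For leukocytes it was 1 of 5 (CD68), for red cells and platelets 1 of 3 (PPBP), and for bone cells 2 of 3 (SP7 and IBSP). For adipocytes and muscle it was 1 of 5 with AES24h and 2 of 5 with AES (PLIN1 and MYOD1 being the genes). The medians of the 6 lists of other cells lay between -0.16 and -0.05, or between -0.06 and 0.05 without AES replicates 2 and 4, and their part in the results was not tested.

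The same pair of sera at the earlier harvest gave 1 call. At 2 h, 1 of 30559 probe sets was called (0.00327%), an unnamed one at -0.87 with an adjusted p of 0.0183, and 4.04% had an unadjusted p below 0.05. The called probe set was dim: at 48 h it averaged 2.18 with AES24h and 2.35 with AES, below every array median. The ATF4 list had a median of -0.05 at 2 h, the sterol list 0.05 and the oxidant defence list -0.02. PSAT1 differed by -0.18 at 2 h, ASNS by -0.01 and SC5D by 0.15, while EBP differed by 0.43. No probe set passed the test that the difference between sera itself differed between 48 h and 2 h (0%, lowest adjusted p 0.988), and 4.61% had an unadjusted p below 0.05.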

How the data were processed

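Total RNA of 40 equine chondrocyte pellet samples was measured on Affymetrix whole-transcript arrays. Per the labels' protocols, RNA was amplified into biotin-labelled cDNA, and the submitters' processing notes name Affymetrix Expression Console, RMA and limma, with versions not stated. The authors deposited log2 values, which in range and array medians look like RMA output (background-corrected, quantile-normalised and summarised probes). What limma served for is not given in the sources used here. A normalisation that sets array distributions alike reduces any shift shared by most transcripts. The number of arrays limits the precision, and 4 arrays stood in each group.

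Groups came from the sample titles. A linear model of 10 group means over 40 arrays was fitted with limma 3.58.1 in R 4.3.3 (30 residual and 4.62 prior degrees of freedom, intensity trend), with two-sided tests, Benjamini-Hochberg adjustment over 30559 probe sets and a threshold of 0.05. Every difference is AES24h minus AES unless stated. Intervals of single genes are 95% and unadjusted. Of the probe sets 16789 had 1 gene symbol in the platform annotation, 343 had several and 13427 were unlisted and stay unnamed. The brightest probe set stood for a gene that had more than 1. Lists of genes were described by counts and medians, with no set test.

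Named were the 10 highest and 10 lowest differences without overlap in the upper 60% of probe sets by mean, up to 2 members of each list with an unadjusted p below 0.05, and 17 genes named in any case. The comparison, lists and rule were chosen with earlier results of these data known. Replicate numbers are shared by the groups in the titles; whether they pair the samples was checked from the correlation of deviations from the group means. The scripts were tested on simulated data. Alternatives covered a replicate block, fixed or random, a filter on dim probe sets, renormalisation, median centring, no trend, array weights, fewer groups in the fit, a minimum of 1.5-fold, and arrays left out. Genome positions and sequences are not given.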

Additional observations from a re-analysis of the deposited data

Results flagged for a closer look

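In 7 of the 240 sets of 4 arrays examined, over the named genes, list scores and array medians, 1 array lay far from the other 3 by Dixon's criterion at 95%, where chance gives about 1 in 20. On AES24h arrays, PSMB8, an immunoproteasome subunit, stood at 2.80 on replicate 3 against 3.32 to 3.40 on the others. ADAMTS5 stood at 9.71 on AES24h replicate 1 against 10.38 to 10.49. On AES arrays, NQO1 stood at 5.74 on replicate 2 against 6.48 to 6.61, and MMP13 at 11.39 on the same replicate against 12.64 to 12.85. On AES replicate 1, ERRFI1, a feedback inhibitor of EGF receptor signalling, stood at 10.77 against 9.58 to 9.75, and CXCL8 at 9.48 against 6.93 to 7.07. MKI67 stood at 4.18 on AES replicate 4 against 6.0 to 6.35.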

How the results depend on the processing

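At 48 h the count of called probe sets stayed 0 under 11 other settings of normalisation, filter, trend, weights and samples, was 1688 without AES replicates 1 and 3, and was 1 with the replicate block (ERRFI1, 1.14, adjusted p = 0.0485). Leaving out 1 array or replicate number at a time gave 0 to 134, with 134 without AES replicate 3, 10 without AES replicate 1 and 18 without replicate 3 of every group. The main fit had no replicate term, and the labels do not say whether the replicate numbers pair the samples. Same-numbered arrays of AES24h and AES correlated at -0.05 to 0.33 and over 0.1 in 2 of 4 cases. Over the whole series 98 of 180 same-numbered pairs were over 0.1 (median 0.11), against 38 of 540 other pairs (median -0.04). Among AES24h arrays 3 of 4, and among AES arrays 2 of 4, correlated best with their own number. Same-numbered arrays were thus more alike over the series, which the main fit does not use. Under the replicate block 4561 probe sets had an unadjusted p below 0.05, against 3583 in the main fit. At 2 h the 1 call was 0 over the upper 60% of probe sets and with only the groups compared, and 0 to 1 with arrays left out. That probe set is dim, so a filter on level can remove it before testing, and the 0 over the upper 60% is no test of it. With 1 array, or 1 replicate number, left out at a time, the difference between times gave 0 to 1 calls. The 1 was without replicate 3 of AES at 48 h or of every group. The difference in array medians was 0.01 (0.0121) over the upper 60%, and -0.10 to -0.05 with arrays left out. Signs of 73 of 83 named genes, and of all 67 with an unadjusted p below 0.05, never turned in the settings run. The 67 were selected by their values on these same arrays, and groups without overlap cannot turn when arrays are left out. Their steady signs are therefore no independent test. IL6 was -0.0039 with quantile normalisation applied again and -0.43 with array weights. Without AES replicates 2 and 4, and with renormalisation as well, the values were -0.63 and -0.65 for IL6, -0.14 and -0.17 for CXCL8, -0.0305 and -0.0187 for MMP1, -0.0469 and -0.0147 for MMP13, -0.32 and -0.31 for MKI67, and -0.18 and -0.15 for TOP2A, and IL1RN was 0.0025 with both. With 1 array, or 1 replicate number, left out at a time, IL6 ran between -0.519 and 0.603, MMP1 between -0.0419 and 0.749, MMP13 between -0.0415 and 0.445, ADAMTS4 between -0.178 and 0.432, ACAN between -0.106 and 0.547, COL1A1 between -0.337 and 0.0813, MKI67 between -0.309 and 1.02 and TOP2A between -0.079 and 1.24. Causes were not tested. Without AES replicates 1 and 3 the calls at 48 h held EBP (1.59, adjusted p = 0.00164), SC5D (1.33, adjusted p = 0.00152), ASNS (1.66, adjusted p = 0.0219) and PSAT1 (1.92, adjusted p = 0.0325), the difference between times had 2 calls, and the medians of the sterol, ATF4, oxidant defence and mitosis lists were 0.61, 0.50, 0.70 and 1.03. AES replicates 2 and 4 are least like AES24h, so leaving them out reduces most differences by construction, leaving out 1 and 3 enlarges them, and neither tests anything independently. The settings without AES replicates 2 and 4 with renormalisation, and the unadjusted counts without them, were added after seeing the data.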

Other observations

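Lists of protein supply genes had positive medians. They were put together after their values were seen, so they are given as values with no test. At levels of 6 to 7, 7 to 8 and 8 to 9, the shares of all probe sets higher at an unadjusted p below 0.05 were 10.4%, 16.9% and 18%, and the median differences were 0.07, 0.15 and 0.15. Cytosolic tRNA synthetases, which load amino acids onto tRNAs, shared 4 genes with the ATF4 and amino acid list (AARS1, GARS1, MARS1 and WARS1) and had a median difference of 0.40 over 18 genes, or 0.21 without AES replicates 2 and 4, and 9 were higher at an unadjusted p below 0.05. Enzymes that assemble N-linked glycans had a median of 0.42 over 21 genes, or 0.19 without those arrays, with 12 higher. Genes of protein entry into and export out of the endoplasmic reticulum had a median of 0.35 over 31 genes, or 0.14, with 18 higher. Proteasome subunits had a median of 0.32 over 29 genes, or 0.13, with 17 higher. Mitochondrial ribosomal proteins had a median of 0.15 over 66 genes, or 0.09, with 10 higher and 1 lower, at a median level of 6.42. The other 4 lists had median levels of 7.62 to 8.35.

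IL11, a cytokine of the IL-6 family picked after its values were seen, read 10.97, 8.97, 9.16 and 10.68 with AES24h and 10.33, 7.18, 8.20 and 8.77 with AES. The groups overlapped, and the difference was 1.33 with an adjusted p of 0.402, or 0.68 without AES replicates 2 and 4. CXCL13, a B-cell chemokine also picked after its values were seen, read 3.63, 5.57, 7.53 and 4.13 with AES24h and 3.70, 6.93, 9.17 and 9.86 with AES. The arrays of each group were several units apart and the groups overlapped. Its difference of -2.20 was the lowest among named genes, with an adjusted p of 0.358, and was -1.22 without AES replicates 2 and 4.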
